A study of Mus musculus with 16 samples.

Results

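Expression of 9 genes known as markers of parietal epithelial cells, or of the activation of these cells, was followed in polysome RNA of mouse kidney: Pax2, Pax8, Cd44, Cd9, Cd24a, Scin, Cdh6, Wfdc2 and Vcam1. They were chosen as the array probes whose accession maps to 1 of these 9 symbols, among 20145 genes with a named probe. They have 16 probes in all, and 8 of the 9 genes were bright enough to be among the 14565 genes tested. Pax2 was not.

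Parietal epithelial cells line Bowman's capsule, the cup around the glomerular capillary tuft, and lie next to the podocytes that cover the capillaries. Both cell types come from the same progenitors of the developing nephron. Pax2 and Pax8 are paired-box transcription factors of those progenitors, which parietal cells keep and mature podocytes mostly lose. In scarring glomeruli, activated parietal cells gain the hyaluronan receptor Cd44 and the tetraspanin Cd9, and move onto the tuft. None of the 9 genes is made by parietal cells alone: Cd44 and Cd24a are also found on leukocytes, Vcam1 on endothelial cells, and Cd24a and Wfdc2 in tubule epithelium.

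Each group holds 4 arrays, and all mice were of the C57BL/6N background. Podocytes were studied at 4 and at 7 days after the immunotoxin LMB2, a single dose of which (0.625 ng per g) was put into a tail vein of Nphs1-RiboTag-NEP25 mice. Normal podocytes and glomerular cells came from Nphs1-RiboTag mice, which the series text describes without NEP25. NEP25 mice carry human CD25 on podocytes, which LMB2 binds. In RiboTag mice, Cre under the control of Nphs1 (nephrin, a podocyte gene of the slit diaphragm) puts an HA tag on the ribosomes of podocytes. Podocyte RNA was taken from polysomes precipitated with antibody to HA, and glomerular RNA from polysomes without precipitation. No label ties an array to an animal of its own, so p-values measure the spread between these samples. Both normal groups were hybridised on 1 slide and both LMB2 groups on another, so a difference of day 4 or day 7 from normal podocytes cannot be told apart from slide or from the NEP25 genotype. Normal podocytes against glomerular cells, and day 7 against day 4, were each compared within 1 slide. Only the podocyte RNA was precipitated, so a difference of normal podocytes from glomerular cells cannot be told apart from precipitation. Day 7 arrays lay in one row of their slide and day 4 arrays in the other, so these times cannot be told apart from slide row.

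The label of the podocyte groups was read beside 8 podocyte genes. That list was chosen with earlier results of these data known, so it is no independent check. All 8 were higher in normal podocyte than in glomerular RNA, as were 51.5% of the 14565 genes tested, and all 8 were well above background on every podocyte array. Against normal podocytes, 4 of the 8 were lower at day 4 and 6 of the 8 at day 7, as were 19.9% and 36.4% of all genes. Arrays differed in tubule RNA: the mean level of 8 proximal tubule genes was 4.13 on day 7 replicate 4, 3.36 on day 4 replicate 1 and 2.95 on normal podocyte replicate 4, against at most 1.80 on every other podocyte array. A level here is the log2 intensity of a gene's probe minus the 75th percentile of the array, so 0 lies at that percentile and 1 unit is 2-fold. Differences and their standard errors (SE) are on the same log2 scale, and "called" means an adjusted p under 0.05 in limma over all 14565 genes.

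Promoter sequence is shown for the pair of surface proteins most used to recognise activated parietal cells, Cd44 and Cd9, since both rose at day 7. The windows are RefSeq's for GRCm38.p6, 250 bases before to 50 after the start of the gene, on the minus strand at chr2:102901616-102901915 for Cd44 and chr6:125494711-125495010 for Cd9. Capitals mark a match to a form of the NF-kappaB site.
Cd44: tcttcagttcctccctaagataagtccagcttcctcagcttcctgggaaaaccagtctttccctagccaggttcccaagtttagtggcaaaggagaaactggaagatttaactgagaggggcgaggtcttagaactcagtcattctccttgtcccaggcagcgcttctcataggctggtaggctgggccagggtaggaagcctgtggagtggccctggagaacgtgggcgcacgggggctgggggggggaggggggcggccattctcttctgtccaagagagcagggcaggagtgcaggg
Cd9: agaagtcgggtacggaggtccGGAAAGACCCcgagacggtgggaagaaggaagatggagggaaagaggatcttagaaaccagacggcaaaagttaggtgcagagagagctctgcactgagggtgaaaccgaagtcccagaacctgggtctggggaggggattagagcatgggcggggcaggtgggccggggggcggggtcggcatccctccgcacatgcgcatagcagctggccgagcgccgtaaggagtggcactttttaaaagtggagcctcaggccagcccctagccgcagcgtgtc
Both strands were searched for TGANTCA, the AP-1 site, and for a form of the NF-kappaB site (GGG, then 2 free letters, TT, 1 free letter and CC), in the windows of the 7 markers that have one. AP-1 letters were in none of them, and the NF-kappaB letters were only in that of Cd9, on the strand opposite to the printed one, where the printed letters are GGAAAGACCC from 229 bases upstream of the start. Among all 32851 promoter windows of 300 bases, 7.81% held the AP-1 letters and 4.79% the NF-kappaB letters. These matches describe the sequence only, and no binding was measured.

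Normal podocytes were first set against glomerular cells, both from uninjured mice. Since only the podocyte RNA was precipitated, these differences do not measure how much of each marker sat on podocyte ribosomes. Of the 8 markers tested, 6 were called lower in podocyte RNA and none was called higher, with group as the only term. The lowest were Wfdc2, Cd9, Cd24a and Vcam1, which were 17.0-fold to 29.6-fold lower, while Pax8 and Cdh6 were not called. With the replicate number as a block, which paired the arrays of these groups, Pax8 was called higher, by 0.33 (limma adjusted p = 0.0247). The median difference of the 8 was -2.95, against 0.38 for all genes tested. Among all genes 79.0% were called in this comparison, 51.5% higher and 27.5% lower, and in 73.0% the groups did not overlap, as in 7 of the 8 markers. Fewer cells of a type and less RNA per cell cannot be told apart in such bulk RNA.

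Wfdc2, a secreted protein of the whey acidic protein family, read -0.40, -0.63, -1.21 and -0.89 in normal podocytes, against 4.48, 3.89, 4.03 and 4.03 in glomerular cells. Every podocyte array lay far below every glomerular array. The difference was -4.89 ± 0.33 (SE, n = 4 per group, limma adjusted p = 8.15e-09), the widest of the 8. Its second, dimmer probe gave -4.93.

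Cd9, a tetraspanin that gathers integrins and other membrane proteins into platforms, read -0.25, -0.42, -0.52 and -0.61 in normal podocytes, against 4.44, 3.85, 4.52 and 4.14 in glomerular cells. The groups were again far apart, by -4.69 ± 0.26 (25.8-fold lower, limma adjusted p = 1.28e-09). Cd24a, a small sugar-rich surface protein that marks parietal progenitors in humans, read 2.31, 2.59, 2.12 and 2.07 in normal podocytes, against 6.62, 6.58, 6.55 and 6.27 in glomerular cells. It was 18.8-fold lower, by -4.23 ± 0.23 (limma adjusted p = 1.25e-09), although its probe still lay above the array's 75th percentile on every podocyte array.

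Vcam1, an adhesion receptor bound by the integrin of Itga4 and Itgb1, read -2.30, -3.83, -1.65 and -2.39 in normal podocytes, against 1.15, 0.57, 2.50 and 1.96 in glomerular cells. Both groups were widely spread, yet did not overlap, and the difference was -4.08 ± 0.53 (limma adjusted p = 6.24e-06). Its second probe was well above background on no normal podocyte array and on all 4 glomerular arrays, so that probe gives only a bound, at least 6.39-fold lower in podocytes, beside a measured difference of -4.08.

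Scin, scinderin, a calcium-dependent protein that severs and caps actin filaments, read -0.76, -3.24, -1.19 and -1.99 in normal podocytes, against 0.09, -0.60, 0.38 and 0.19 in glomerular cells. Normal podocyte replicate 2 was the lowest by far, and the groups did not overlap. The difference was -1.81 ± 0.49 (limma adjusted p = 0.00329). Cd44, the hyaluronan receptor, read -2.50, -2.37, -2.14 and -2.58 in normal podocytes, against -1.22, -1.01, 0.22 and -1.40 in glomerular cells. Glomerular replicate 3 stood above the other glomerular arrays, and Cd44 was 2.92-fold lower in podocytes, by -1.55 ± 0.33 (limma adjusted p = 0.000559). A second Cd44 probe, on all glomerular arrays well above background but on only 1 normal podocyte array, gave -2.58.

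Pax8 and Cdh6 stood apart from these. Pax8 read 0.86, 0.47, 0.85 and 0.45 in normal podocytes, against 0.43, 0.08, 0.36 and 0.42 in glomerular cells. All podocyte arrays were higher than all glomerular arrays, by a narrow margin, and the difference of 0.33 ± 0.23 was not called (limma adjusted p = 0.186). It was called with the replicate number as a block (limma adjusted p = 0.0247). With each array's median over all probes set to 0 it was called too, at 0.65 (limma adjusted p = 0.0178). Each of these settings raised the markers called to 7. Cdh6, a cadherin of the early nephron, read -2.59, -2.80, -1.93 and -3.10 in normal podocytes, against -1.94, -2.32, -2.08 and -1.95 in glomerular cells. The groups overlapped, and the difference of -0.53 ± 0.29 was not called (limma adjusted p = 0.106). It was called without normal podocyte replicate 3, at -0.76 (limma adjusted p = 0.0243).

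**Figure D1:**
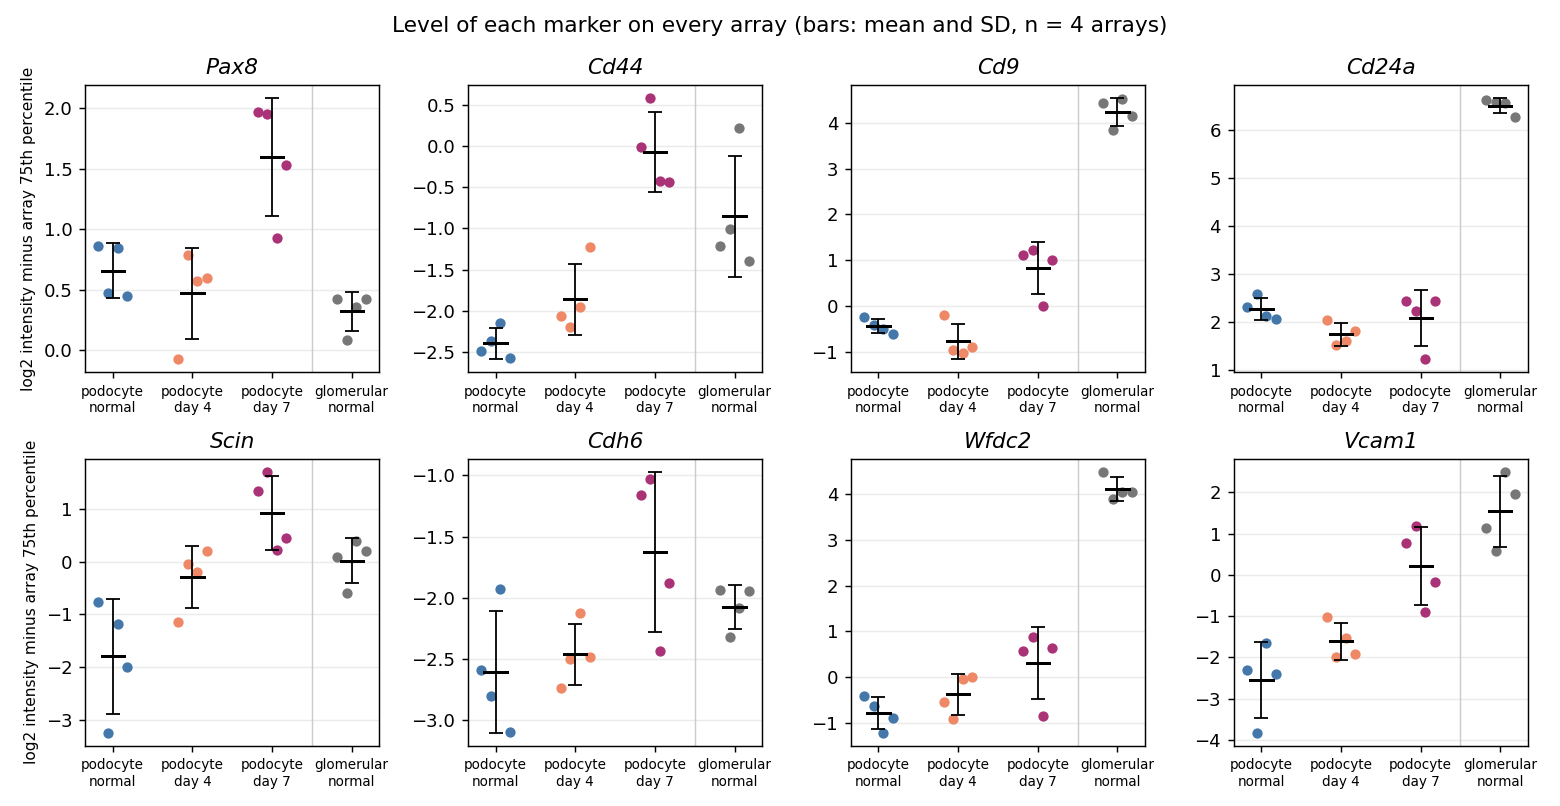
Level of each tested marker on every array (y axis, log2 intensity minus the array's 75th percentile). Columns are normal podocytes, podocytes at day 4 and day 7, and glomerular cells, with 4 arrays each, and bars give mean and SD. In Cd9, Cd24a and Wfdc2 all podocyte arrays lie far below the glomerular arrays at every time. Day 7 podocytes overlap the glomerular values of Cd44, Scin, Cdh6 and Vcam1. For Pax8 they lie above them, as normal podocytes already do.

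Pax2 could not be followed. The brightest of its 3 probes was well above background on 1 of 4 normal podocyte arrays, 0 of 4 at day 4, 1 of 4 at day 7 and 1 of 4 glomerular arrays, and the other 2 probes on none of the 16 arrays. That probe averaged -4.74 ± 0.47 in normal podocytes, -5.08 ± 0.45 at day 4, -4.87 ± 0.46 at day 7 and -5.33 ± 0.70 in glomerular cells (SD, n = 4). Such values lie near the array's limit and carry no order.

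The low values in podocyte RNA were shared by markers of other kidney cells. All 8 endothelial, all 8 mesangial and smooth muscle, all 8 proximal tubule, 6 of 7 distal nephron and 6 of 8 leukocyte genes were lower in normal podocyte than in glomerular RNA. Of all genes 27.5% were. Proximal tubule genes, summed as multiples of the array's 75th percentile, ran from 32.1 to 132 in normal podocytes and from 448 to 897 in glomerular cells, so the glomerular RNA held transcripts of tubule as well. How much of the difference in Cd9, Cd24a, Wfdc2 and Vcam1 came from such cells was not tested.

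Further genes linked to parietal cells did not all follow the 8 markers. Of 12 others tested, all were called between normal podocytes and glomerular cells, 7 lower and 5 higher. Among all genes 27.5% were called lower and 51.5% higher. The widest were lower: Krt18 and Krt8, the keratins of simple epithelia, at -3.43 ± 0.42 and -3.41 ± 0.63, and Prom1, the membrane protein known as CD133 in humans, at -3.27 ± 0.49. The 5 that were higher in podocytes were Krt7, Aldh1a2, Bmp7, Ncam1 and Cldn1, at 2.55, 2.36, 1.95, 1.74 and 1.22. Names of the last group were given after their values were seen.

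At day 4 after LMB2 few of the markers were called. Scin alone was called, 2.83-fold higher than in normal podocytes, and none was called lower in this fit. The median difference of the 8 was 0.28, against -0.12 for all genes. Of all genes 32.3% were called, 12.3% higher and 19.9% lower, so 1 of 8 higher is close to the share of all genes. The groups did not overlap in 33.3% of all genes and in 1 of the 8 markers, Cd24a.

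Scin read -0.76, -3.24, -1.19 and -1.99 in normal podocytes, -1.15, -0.04, -0.19 and 0.20 at day 4, and 1.33, 1.70, 0.22 and 0.45 at day 7. Its day 4 values overlapped the normal ones through day 4 replicate 1, and those of day 7 lay above both, if only just. The day 4 difference was 1.50 ± 0.49 (limma adjusted p = 0.0291) and the day 7 difference 2.72 ± 0.49 (6.58-fold, limma adjusted p = 0.000251). The day 4 call was lost without normal podocyte replicate 2, at 1.02 (limma adjusted p = 0.0862), and without each of 4 other arrays in turn. Day 7 was higher than day 4 by 1.22 ± 0.49, which was not called (limma adjusted p = 0.0668).

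Scin belongs to the gelsolin family of actin-severing proteins, of which 6 were tested. Among all genes 12.3% were called higher at day 4 and 21.8% at day 7, against normal podocytes. At day 4, 3 of the 6 were higher and none lower: Scin, Vil1, villin of microvilli, at 1.78 ± 0.58, and Capg, an actin-capping protein, at 0.94 ± 0.15. At day 7, 2 of 6 were higher, Scin and Capg at 2.63 ± 0.15, and Capg was also higher at day 7 than at day 4, by 1.69. In normal podocytes, 4 of the 6 were lower than in glomerular cells, led by Vil1 at -3.17, while Gsn, gelsolin, was higher at 2.42 ± 0.12.

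At day 7 the markers were broadly higher. Of the 8, 7 were called, all higher than in normal podocytes, by 1.92-fold to 6.78-fold, and only Cd24a was not. The median difference was 1.19, against -0.14 for all genes. Among all genes 58.2% were called, 21.8% higher and 36.4% lower, and 50.4% had groups that did not overlap, as did 5 of the 8 markers. The 7 markers were again called with any 1 of the 16 arrays left out.

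**Figure D2:**
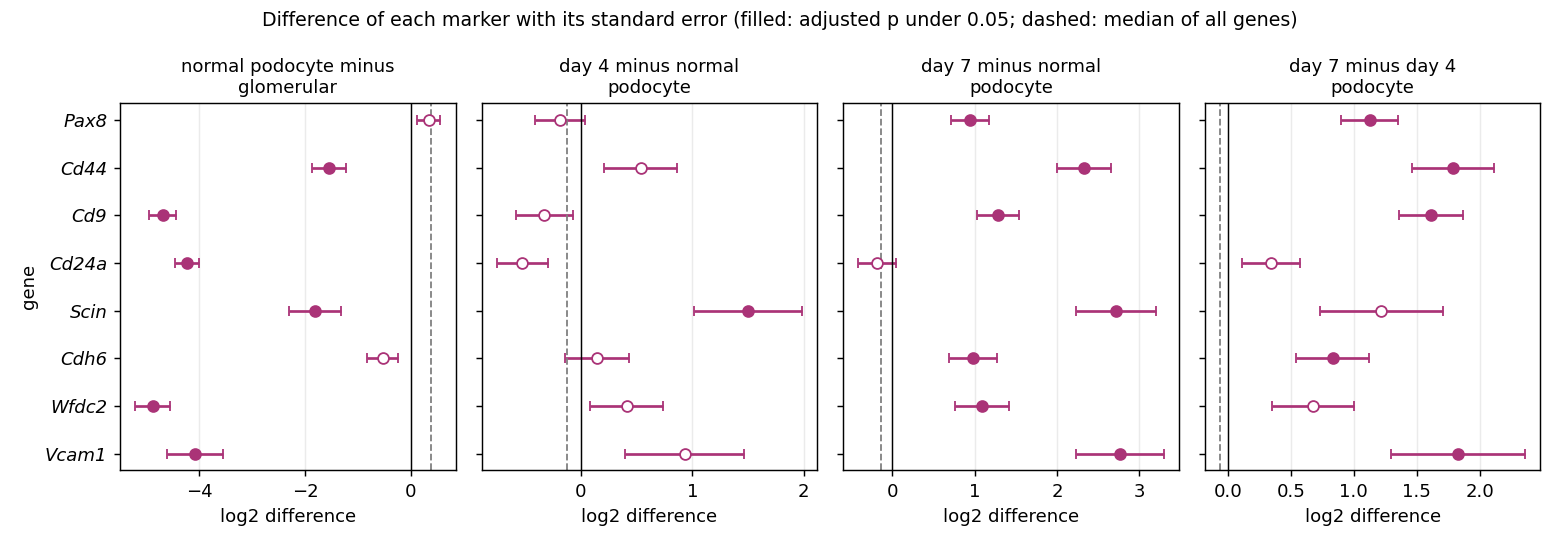
Log2 difference of each tested marker in 4 comparisons (x axis), with limma's SE as bars. Filled points are called at adjusted p under 0.05, open points are not, and the dashed line is the median over 14565 genes. In 7 of the 8 markers the point is filled and right of 0 at day 7 against normal, and in 1 of the 8 at day 4.

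Vcam1 and Cd44, the adhesion receptors, stood with Scin as the 3 widest changes. Vcam1 ran from -3.83 to -1.65 in normal podocytes, read -1.01, -1.99, -1.52 and -1.92 at day 4, and 0.77, 1.20, -0.90 and -0.18 at day 7. Every day 7 array was above every array of the other podocyte groups. Against normal podocytes the difference was 2.76 ± 0.53 at day 7 (6.78-fold, limma adjusted p = 0.000469) and 0.93 ± 0.53 at day 4 (limma adjusted p = 0.200). Its second probe, well above background on no normal podocyte array and on all 4 at day 7, was at least 4.25-fold higher at day 7. The measured difference was 3.49. That probe was kept only for groups where it is bright, so it is no independent check.

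Cd44 ran from -2.58 to -2.14 in normal podocytes, read -2.06, -2.20, -1.96 and -1.23 at day 4, and -0.01, 0.59, -0.43 and -0.43 at day 7. Day 7 arrays lay well above both earlier groups, which overlapped each other. The difference was 2.33 ± 0.33 at day 7 (5.02-fold, limma adjusted p = 3.13e-05) and 0.54 ± 0.33 at day 4 (limma adjusted p = 0.232). A second Cd44 probe was well above background on all 4 day 7 arrays, no day 4 array and 1 normal podocyte array. It was at least 6.80-fold higher at day 7 than at day 4. Its measured difference of 2.96 at day 7 against normal rests on mostly near-background normal values, so its size is not firm. The probe was kept only for groups where it is bright, so it is no independent check. The 2 remaining Cd44 probes were not well above background on any array, and no level is drawn from them.

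**Figure D3:**
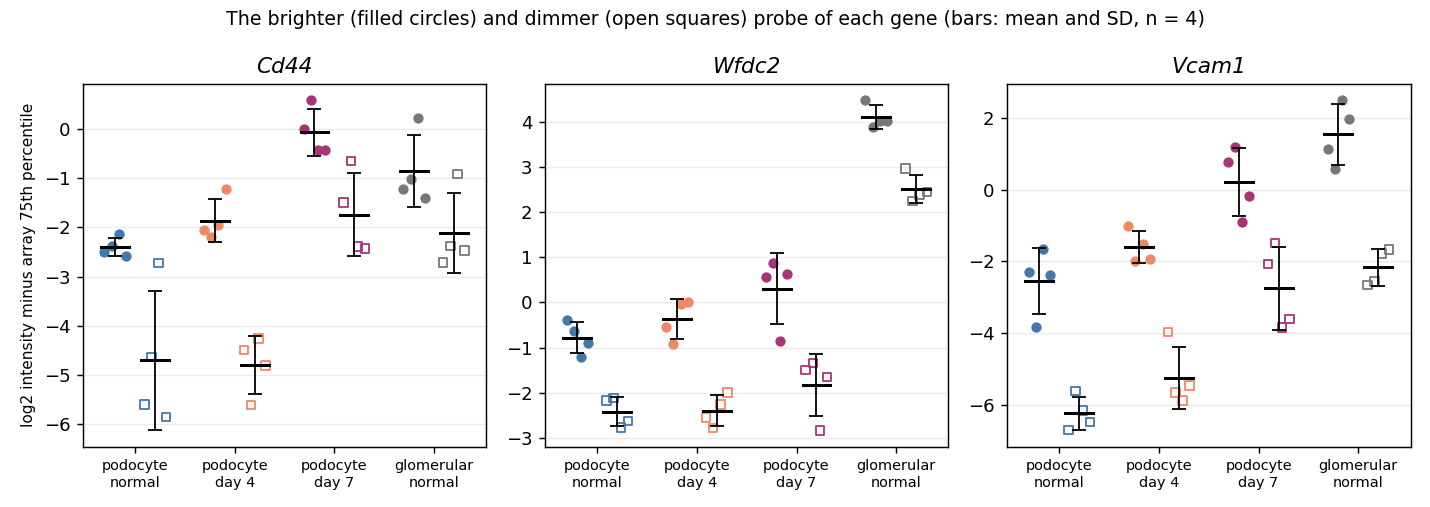
Both probes of Cd44, Wfdc2 and Vcam1 that were above background in some group, by array (y axis, log2 intensity minus the array's 75th percentile). Filled circles are the brighter probe, open squares the dimmer one, and bars give mean and SD of 4 arrays. For Cd44 and Vcam1 both probes are higher at day 7, while the dimmer Wfdc2 probe differs by 0.59 between day 7 and normal podocytes, which was not called.

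Cd9 ran from -0.61 to -0.25 in normal podocytes, read -0.21, -0.97, -1.03 and -0.91 at day 4, and 1.11, 1.23, -0.02 and 1.00 at day 7. No day 7 array was as low as any earlier podocyte array. The difference was 1.28 ± 0.26 at day 7 (2.43-fold, limma adjusted p = 0.000611) and -0.33 ± 0.26 at day 4 (limma adjusted p = 0.351). Pax8 ran from 0.45 to 0.86 in normal podocytes, read -0.07, 0.79, 0.57 and 0.60 at day 4, and 1.97, 1.95, 0.93 and 1.53 at day 7. Its lowest day 7 array, replicate 3, was only just above the highest earlier one. The rise at day 7 was 0.94 ± 0.23 (1.92-fold, limma adjusted p = 0.00248), and the day 4 difference was -0.19 ± 0.23 (limma adjusted p = 0.570).

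Wfdc2 ran from -1.21 to -0.40 in normal podocytes, read -0.54, -0.92, -0.04 and 0.02 at day 4, and 0.57, 0.88, -0.85 and 0.63 at day 7. The other 3 day 7 arrays were above all normal and day 4 arrays and day 7 replicate 3 lay within the normal range. The difference was 1.09 ± 0.33 (limma adjusted p = 0.0106), but the second probe, at 0.59, was not called (adjusted p = 0.0983 over probes). With each array's median over all probes set to 0, the brighter probe was not called either, at 0.76 (limma adjusted p = 0.0663). Cdh6 ran from -3.10 to -1.93 in normal podocytes, read -2.73, -2.50, -2.13 and -2.49 at day 4, and -1.16, -1.03, -2.44 and -1.88 at day 7. Day 7 replicate 3 again lay with the normal arrays, and the difference was 0.98 ± 0.29 (limma adjusted p = 0.00981).

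Cd24a was the exception. It ran from 2.07 to 2.59 in normal podocytes, read 2.05, 1.52, 1.61 and 1.81 at day 4, and 2.45, 2.23, 1.23 and 2.44 at day 7. All day 4 arrays were just below all normal ones, but the difference of -0.53 ± 0.23 was not called (limma adjusted p = 0.0953). It was called lower with each array's median over all probes set to 0, at -0.79 (limma adjusted p = 0.0169). Leaving out day 7 replicate 3, which enters only through the shared spread, also gave that call (limma adjusted p = 0.0125). At day 7 the difference was -0.18 ± 0.23 (limma adjusted p = 0.517), with replicate 3 far below the other 3 arrays, and its sign turned to 0.10 without that array.

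Day 7 was also set directly against day 4, on the same slide. Of the 8 markers, 5 were higher at day 7 and none was lower: Vcam1 by 1.83 ± 0.53 (limma adjusted p = 0.0168), Cd44 by 1.79 ± 0.33 (0.00102), Cd9 by 1.61 ± 0.26 (0.000352), Pax8 by 1.13 ± 0.23 (0.00188) and Cdh6 by 0.83 ± 0.29 (0.0389). Scin, Wfdc2 and Cd24a, at 1.22, 0.68 and 0.34, were not called. The median was 1.17, against -0.06 for all genes, of which 33.6% were called, 13.4% higher and 20.2% lower. In 5 of the 8 markers, and in 33.9% of all genes, the groups did not overlap.

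The count rested partly on single arrays. Without day 7 replicate 3, which was the lowest day 7 array in 7 of the 8 markers, all 8 were called higher than at day 4, and without day 7 replicate 2, 3 were. Vcam1 was not called in the second case, at 1.50 (limma adjusted p = 0.0560). A fit of the arrays of that slide alone called 4, without Cdh6 (limma adjusted p = 0.0758), and leaving out day 4 replicate 1 and normal podocyte replicate 4, both rich in tubule RNA, also left 4. Day 7 replicate 3 had the highest mean of the podocyte list among day 7 arrays, 7.40 against 7.20 to 7.30, and the lowest of the mesangial list, 1.90 against 2.15 to 2.52. Whether those lists have a part in its low marker levels was not tested.

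Set side by side across slides, day 7 podocytes and normal glomerular cells differed by marker, and no test was made between them. Pax8 averaged 1.60 ± 0.49 at day 7 and 0.32 ± 0.16 in glomerular cells (SD, n = 4), with no overlap. Cd44, at -0.07 ± 0.48 and -0.85 ± 0.73, Scin, at 0.92 ± 0.71 and 0.02 ± 0.43, and Cdh6, at -1.63 ± 0.66 and -2.07 ± 0.18, overlapped. Vcam1 also overlapped, at 0.22 ± 0.95 in day 7 podocytes and 1.54 ± 0.86 in glomerular cells. For Cd9, Wfdc2 and Cd24a the day 7 means of 0.83, 0.31 and 2.09 remained far below the glomerular means of 4.24, 4.11 and 6.51.

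Markers of other cells at day 7 were read on the same arrays, against normal podocytes, where 21.8% of all genes were called higher and 36.4% lower. Podocyte genes were lower in 6 of 8, among them Nphs1, nephrin, at -1.45 ± 0.15, and Podxl, podocalyxin, at -1.35 ± 0.12. Mesangial and smooth muscle genes were higher in 3 of 8 and lower in none: Tagln, transgelin, at 6.01 ± 0.25, Des, desmin, at 3.02 ± 0.16, and Acta2, smooth muscle actin, at 1.60 ± 0.32. The sum of this list ran from 25.3 to 36.2 times the 75th percentile in normal podocytes, 47.1 to 79.3 at day 4, and 802 to 1094 at day 7. The other 5 of the list were not called: Ren1 at 0.84, Agtr1a at 0.12, Gata3 at -0.07, Itga8 at -0.23 and Pdgfrb at -0.47.

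Among the remaining lists, none of 8 proximal tubule genes was called at day 7 against normal, 1 endothelial gene was higher and 2 were lower of 8, 1 leukocyte gene was higher and 1 lower of 8, and 1 of 7 distal nephron genes was lower. The endothelial sum ran from 23.5 to 36.0 at day 7, against 30.4 to 68.9 in normal podocytes. Leukocyte genes summed to 14.2 to 24.1 at day 7, against 18.0 to 26.7 in normal podocytes, and distal nephron genes to 4.42 to 16.8, against 6.04 to 9.91. A sum is weighted toward the brightest genes of a list, and the leukocyte sum gives no fall of the list. Its mean log2 level was -1.93 ± 0.22 at day 7 and -2.19 ± 0.49 in normal podocytes (SD, n = 4), and its median difference was 0.35. The proximal tubule sum ran from 12.5 to 256 at day 7, against 32.1 to 132 in normal podocytes. Without day 7 replicate 4, the array highest in this list, the markers called numbered 7 against normal podocytes and 5 against day 4, as with it.

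**Figure D4:**
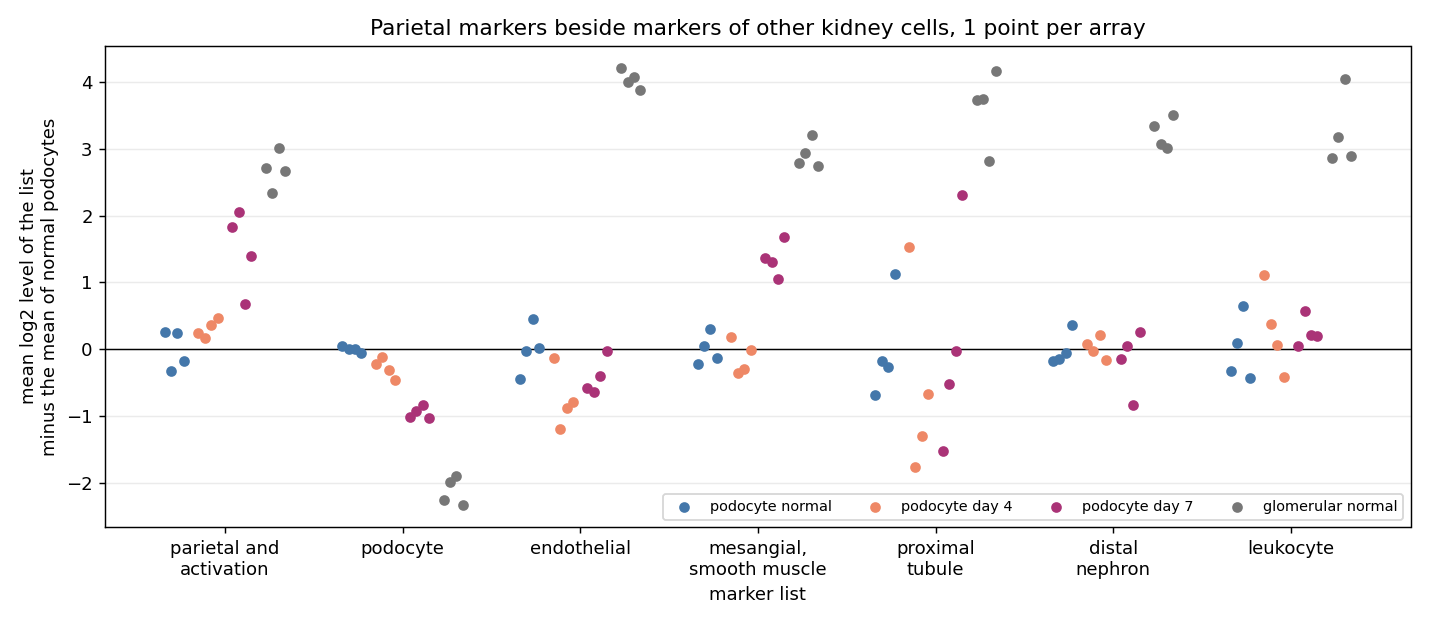
Mean log2 level of each marker list on each array minus its mean in normal podocytes (y axis), 1 point per array. The means of the 8 parietal markers and of the mesangial list lie higher at day 7 than in normal podocytes. Cd24a and 5 of the 8 mesangial genes were not called there. The podocyte list lies lower, and the proximal tubule list is high on 1 array of each podocyte group.

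Other genes tied to the markers were counted from lists. Beside them stand the shares of all genes called. Against normal podocytes these were 21.8% higher and 36.4% lower at day 7, and 12.3% and 19.9% at day 4. For day 7 against day 4 they were 13.4% and 20.2%, and for normal podocytes against glomerular cells 51.5% and 27.5%. Of the 12 further parietal genes, 5 were higher and 3 lower at day 7 than in normal podocytes, against 1 and 2 at day 4. Akap12, a scaffold of protein kinases, rose by 3.58 ± 0.41, Cldn1, the tight junction protein of parietal cells, by 2.21 ± 0.36, and Krt18 by 2.14 ± 0.42. At day 4 the called genes were Itgb6, an integrin chain, at 1.03 ± 0.29, Krt7 at -1.17 ± 0.22 and Bmp7, a growth factor, at -0.37 ± 0.13. Against day 4, day 7 was higher in 4, led by Akap12 at 2.76 and Krt18 at 2.43, and lower in Ncam1, a neural cell adhesion molecule, at -0.97.

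Of 17 genes that act with Cd44, as makers of its ligands, coreceptors, anchors or sheddases, 8 were higher and 2 lower at day 7 than in normal podocytes, and 5 were higher and 1 lower at day 4. Has1, a hyaluronan synthase, was well above background on all 4 day 4 arrays, on 3 of 4 at day 7 and on no normal podocyte array. It was at least 2.78-fold higher at day 4 (limma adjusted p = 3.70e-06) and at least 1.22-fold higher at day 7 (limma adjusted p = 4.75e-05). Hbegf and its receptor Egfr were each higher by 2.12 at day 7, and by 1.11 and 1.42 at day 4. At day 7 against day 4, 5 of the 17 were higher and 3 lower. Spp1, osteopontin, a secreted ligand of Cd44, was higher by 1.36 ± 0.41, and Has1 was lower, at -1.19 ± 0.38 (limma adjusted p = 0.0244). Between normal podocytes and glomerular cells, 12 of the 17 were lower and 2 higher, with Cd74, a partner of Cd44 in Mif signalling, at -4.64 and Hbegf at -3.36.

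Of 9 partners or relatives of Vcam1, 5 were higher and none lower at day 7, and 2 were higher at day 4. Icam1, the leukocyte adhesion receptor, was well above background on no normal podocyte array and on all 4 arrays of every other group. It was at least 12.3-fold higher at day 4 (limma adjusted p = 3.76e-07) and at least 38.2-fold higher at day 7 (limma adjusted p = 8.03e-09). Madcam1, a mucosal addressin well above background on 3 of 4 normal podocyte arrays, was higher by 3.05 ± 0.32 at day 7, and Itga9, an integrin chain that binds Vcam1, by 1.36 ± 0.20. Itga4, the other Vcam1-binding alpha chain, was not called at day 7, at -0.31 ± 0.34. In normal podocytes 5 of the 9 were lower than in glomerular cells, among them Icam2 at -5.04, Itga4 at -3.94, and Icam1, at least 11.98-fold lower.

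Of 26 tetraspanins and partners, 6 were higher, Cd9 among them, and 10 lower at day 7 than in normal podocytes. Such counts are close to the shares of all genes, 21.8% and 36.4%. Among the listed genes well above background in both groups, Cd9 had the widest positive difference called, both against normal podocytes and against day 4. Tspan15, a regulator of Adam10, was lower, with differences of -0.86 ± 0.15 at day 4 and -1.66 ± 0.15 at day 7, as was Tspan13, at -1.34 ± 0.18 at day 7. Ptgfrn, a binding partner of Cd9, was well above background on 3 day 7 arrays and no day 4 array, and at least 1.46-fold higher at day 7 (limma adjusted p = 0.000823). In normal podocytes against glomerular cells, 13 of the 26 were higher and 12 lower, among them Tspan1 at -4.81 and Tspan7 at -4.75. The leukocyte tetraspanin Cd53, well above background on all 4 glomerular arrays and no normal podocyte array, was at least 10.99-fold lower in podocytes.

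Of 14 transcription factors and signals of the nephron lineage that hold Pax8, none was called at day 4, while 5 were higher and 3 lower at day 7. Irx3, a homeobox factor of the nephron segments, was higher by 1.89 ± 0.34, Osr1, a factor of the early kidney field, by 1.07 ± 0.27. Sall1, a zinc finger factor of nephron progenitors, was lower, averaging 0.1 at day 7 and 1.1 in normal podocytes (limma adjusted p = 9.51e-05). Of 10 cadherins with Cdh6, 5 were higher and 1 lower at day 7. Cdh11 was higher by 1.19 ± 0.34, and Cdh9 was lower, at -1.03 ± 0.19. Cdh17, the liver-intestine cadherin, was well above background on no normal podocyte array, on 1 of 4 at day 4 and on all 4 at day 7. It was at least 4.10-fold higher at day 7 (limma adjusted p = 2.95e-06). It was also the only 1 of the 10 called at day 4, with levels too near background for a fold. Of 4 whey acidic protein genes with Wfdc2, 2 were higher and 1 lower at day 7, Slpi, a leukocyte protease inhibitor, at 2.85 ± 0.50 and Wfdc1 at -2.63 ± 0.52.

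Genes most alike in pattern to each marker were found over the 16 arrays, as those with the smallest root mean square difference after each gene was centred on its own mean. Pax8 was nearest to Ift43 at 0.20, Wasf1 at 0.26 and Sh3bgrl at 0.27. Cd44 was nearest to Dnaaf3 at 0.39, Pdlim4 at 0.40 and Dusp6 at 0.43. For Cd9 they were Hopx at 0.26, Slc1a5 at 0.29 and Sfrp2 at 0.29. The units are log2, and a smaller value means a closer course over the arrays.

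Cd24a was nearest to Gngt2, Adgrf5 and Id3, at 0.22 to 0.24, which like it lay far lower in normal podocytes than in glomerular cells, at -4.37, -4.32 and -4.12. Wfdc2 was nearest to Tmem213, Cldn8 and Emb, at 0.29 to 0.32, and Cdh6 to Ccdc136, Oxtr and Bbc3, at 0.30 to 0.31. Scin and Vcam1 had the loosest neighbours, Rhou, Crip3 and Bex1 at 0.51 to 0.55 for Scin, and Fbln5, Marcks and Arl5c at 0.58 to 0.65 for Vcam1. All 3 of each were higher at day 7 than in normal podocytes, Bex1 by 2.79 and Fbln5 by 2.67, as the closeness in pattern requires.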

How the data were processed

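Polysome RNA of 4 groups of 4 samples was read on 16 arrays. Per the file headers, each was a 1-colour Agilent array read with Feature Extraction 11.5.1.1, a version that the submitters' processing notes also name. A spot's processed intensity in the deposited files is linear, background-subtracted by that program and not normalized between arrays, and comes with flags for spots well above background, saturated or outlying. The authors' deposited value table holds log2 values of 39430 probes. Its columns were shifts of the log2 processed intensity, with medians of -3.17 to -2.51, and neither the scaling nor the centring behind the shift is stated. Of its 16 columns 6, all of uninjured samples, matched a scanner file with another replicate number of their group, so replicate numbers follow the scanner files.

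Control and outlying spots were left out and spots of 1 probe averaged (Python 3.11.15), which gave 55681 probes. An array held 59305 spots other than controls, of which 49.3% to 57.5% were well above background and none saturated, and the 75th percentile of intensity lay between 226 and 412. Precision is limited by how many arrays there are. Accessions, taken without versions, matched RefSeq for 26582 probes, or 20145 genes, and 29099 probes stayed unnamed. Tests used the level, log2 processed intensity less its 75th percentile on the array. Probes that some group had well above background on all 4 arrays were kept (19048 named, after 58 with a missing value were set aside), and the brightest by mean over 16 arrays stood for its gene. A probe well above background on no array of 1 group could give a bound. In the other, bright group, all 4 arrays had to be well above background for a marker, and at least 1 for another listed gene. The mean over all arrays of the bright group is set against a floor. On each dim array the floor is the probe's own level or the lowest level well above background, whichever is higher.

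All 16 arrays entered 1 limma fit (3.58.1, R 4.3.3) with group as the only term and 12 residual degrees of freedom, with Benjamini-Hochberg adjustment over 14565 genes. The fit was tested on simulated data first. The mean correlation of an array with others of its group was 0.979 to 0.989. Replicate numbers paired normal podocyte and glomerular arrays: same-numbered deviations correlated at 0.42 to 0.51 in the 4 pairs, against -0.28 to -0.07 for other numbers. Alternatives were scaling, background correction (normexp with offset 50 on median signals), the filter on dim probes, the probe rule, the authors' table, the variance model, the slide, the replicate block and leaving out arrays. One more scaling, by the median over genes tested, was added after the data were seen. Named genes were all members, up to 3 called genes of each list per comparison, the 3 genes most like each member, and small counts or exceptions chosen after their values were seen. The members and lists were chosen with earlier results of these data known.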

Additional observations from a re-analysis of the deposited data

Results flagged for a closer look

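Among 32 sets of 4 arrays (8 markers in 4 groups), Cd9 at day 4 had 1 outlying array. Replicate 1 read -0.21, while the next was -0.91 and the lowest -1.03, so its gap to the next took 0.85 of the range, above Dixon's critical value for 4 arrays. Chance alone marks about 1 in 20 such sets. The same array was high in proximal tubule genes, whose part in the value was not tested.

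The difference from normal podocytes was larger at day 7 than at day 4 in 5 markers, by the test of day 7 against day 4: 1.83 in Vcam1, 1.79 in Cd44, 1.61 in Cd9, 1.13 in Pax8 and 0.83 in Cdh6 (log2, limma adjusted p between 0.000352 and 0.0389, n = 4 arrays per group). Of all genes 33.6% were called in that test, 13.4% higher and 20.2% lower. Cdh6 was not called without day 4 replicate 1, 2 or 4, or day 7 replicate 1 or 2, each left out alone (limma adjusted p from 0.0700 to 0.121). With the replicate block, neither Cdh6 (limma adjusted p = 0.153) nor Pax8 (0.0553) was called.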

How the results depend on the processing

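Over 12 alternatives other than leaving out single arrays, the marker counts kept within 1.5 times the reported count, apart from the following. With each array's median over all probes set to 0, 2 markers were called at day 4 against normal podocytes, Scin higher and Cd24a lower. With the replicate block, which did not pair these groups (same-number correlations from -0.36 to 0.08 for day 4 and normal, and -0.41 to 0.16 for day 7 and day 4), 2327 genes and 0 markers were called at day 4 against normal, and 3005 genes and 3 markers at day 7 against day 4. Day 7 and normal podocytes were not paired either (-0.03 to 0.49), and the block called 6 markers there, without Cdh6 (limma adjusted p = 0.0771). The sizes moved too. Over these alternatives the day 7 difference from normal podocytes ran from 1.55 to 2.64 in Cd44 and from 1.87 to 3.13 in Vcam1. It ran from 1.96 to 2.83 in Scin and from 0.41 to 1.09 in Cdh6.

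Leaving out 1 array at a time gave 0 to 2 markers called at day 4 against normal podocytes, 3 to 8 at day 7 against day 4, 7 to 7 at day 7 against normal, and 6 to 7 for normal podocytes against glomerular cells. At day 4 against normal, leaving out normal podocyte replicate 2 or 4, or day 4 replicate 2, 3 or 4, gave 0. Leaving out day 7 replicate 3 gave 2, Scin higher and Cd24a lower. The sign of Cdh6 at day 4 against normal turned with quantile normalization (-0.038), with the median of all probes (-0.12) and without normal podocyte replicate 4 (-0.021, in a range of -0.021 to 0.37 over single arrays left out), and that of Cd24a at day 7 without day 7 replicate 3 (0.10, in a range of -0.30 to 0.10). None of these was called under either sign, and the cause was not tested.

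Setting the median of all probes to 0 moved the median gene by more than the other scalings did. The share of called genes that were higher was 16.9% at day 4 and 21.0% at day 7 against normal, against 38.2% and 37.4% as reported, and 49.2% at day 4 with the median over genes tested, which changed no marker's call. The slide was used only by fits within 1 slide, since no slide holds all groups. Signal over background limits Pax2 in podocytes and glomerular cells alike, and the dimmer Cd44 and Vcam1 probes in normal and day 4 podocytes.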
